A study of Mus musculus with 13 samples.

Results

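PT_out is a cluster of 446 nuclei of mouse kidney that carries a label of its own in the deposited cell annotation, apart from the named cell types. Its members were taken by that label alone, from a total of 28316 nuclei profiled by single-nucleus ATAC-seq (snATAC-seq), an assay that marks open chromatin by where a transposase can cut. The nuclei came from 5 libraries of whole mouse kidney, of which 2 were labelled P0 and made from newborn kidneys (described in the protocol as 1-day-old), 1 was labelled P21 (3 weeks) and 2 were labelled P56 (8 weeks). The P21 and P56 libraries are called adult here. No treatment or genetic change was given in the labels, and the labels do not say whether the libraries of a stage came from separate mice, so the p-values measure only the spread between these libraries. The clusters named PT, PT2 and LOH served as the nearest references, and per the study PT stands for the proximal convoluted tubule, PT2 for the proximal straight tubule and LOH for the loop of Henle.

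The proximal tubule takes back most of the filtered sodium, phosphate, glucose, amino acids and protein through carriers and endocytic receptors of its brush border, and its identity is held by transcription factors such as the nuclear receptor Hnf4a. The loop of Henle follows it along the nephron, and its thick ascending limb takes up sodium, potassium and chloride through the carrier made from Slc12a1, recycles potassium through the Kcnj1 channel and secretes uromodulin, the product of Umod. Both segments arise from nephron progenitors, which are still present around birth and are used up soon after.

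PT_out was found in every library, with 79 and 78 nuclei in the P0 samples, 52 in the P21 sample, and 106 and 131 in the P56 samples. Its share of all nuclei was 1.32% in P0 sample 1 (exact Clopper-Pearson 95% interval 1.04 to 1.64), 1.43% in P0 sample 2 (1.14 to 1.79), 1.55% in the P21 sample (1.16 to 2.02), 1.49% in P56 sample 1 (1.22 to 1.80) and 2.05% in P56 sample 2 (1.71 to 2.43). These intervals cover counting error only. The mean share was 1.38% ± 0.0825 (SD, n = 2) at P0 and 1.69% ± 0.308 (SD, n = 3) in the adult samples, a difference of -0.317 percentage points (exact permutation test, two-sided p = 0.2, the smallest p that 2 against 3 samples allow). Counted among the PT, PT2 and PT_out nuclei alone, the share was 10.8% at P0 and 3.37% in the adult samples, the opposite direction. PT itself held 547 and 557 nuclei at P0 and 1551, 2459 and 2298 among the adult libraries.

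The depth of the PT_out nuclei varied between samples. A PT_out nucleus had a median of 5943 and 6326.5 open peaks in the P0 libraries, 6714 at P21, and 4052.5 and 9198 in the P56 libraries, against 7128, 5420, 5227, 4206 and 7466 in PT and 6567, 7430, 3084, 2496 and 4477 in LOH. PT_out was above PT in 3 of 5 samples and below it in 2, with a mean difference of 557 open peaks (exact sign-flip permutation test over 5 samples, two-sided p = 0.375). Against PT2 the mean difference was -2008 open peaks (p = 0.125 by the same exact test). Against LOH it was 1636 (p = 0.312 by the same exact test), with PT_out shallower in both P0 samples and deeper in the 3 adult samples. The PT_out medians include 84 shallow, nearly all adult nuclei of low proximal weight, described below. Without them the PT_out medians were 8891.5 at P21 and 5655 and 10252 at P56, above PT and LOH in each adult sample. Over all PT_out nuclei the number of open peaks ran from 673 to 17867 around a median of 6283.5. On average 42.5% ± 2.25 (SD, n = 5) of their open calls fell in peaks over an annotated start site, higher than PT (40.8%) and PT2 (39.0%) in 5 of 5 samples and lower than LOH (47.4%) in 5 of 5. By position, 49.7% of the open calls lay in peaks over exons, 29.1% in introns, 4.20% in promoters and 17.0% in distal sequence. Of the PT_out nuclei, 17 carried a barcode that was also present in another library, among 959 such barcodes overall. Doublets were not called, so whether a PT_out barcode holds more than 1 nucleus was not tested.

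To see what each nucleus resembled, its open peaks were scored against the mean profile of each of 13 named clusters of the same sample, with the nucleus itself left out of the profile, for the 435 PT_out nuclei with at least 1000 open peaks. PT was the best match for 310 nuclei (71.3%), LOH for 58, NP (nephron progenitor) for 30, stroma2 for 12, PC (principal cell) for 9 and Podo (podocyte) for 8. PT2 was the best match for 1 nucleus. An equal mixture of a pair of profiles described the nucleus better than any profile alone in 92.0% of PT_out nuclei, with 83.7% to 95.1% in the 5 samples. The same held for 5.11% to 14.5% of PT nuclei in the 5 samples. In PT2 it held for 94.0% and 100% of nuclei at P0, as often as in PT_out, and for 37.9%, 14.4% and 16.9% in the adult samples. In LOH it held for 55.1% and 54.1% at P0 and for 36.4%, 8.83% and 15.6% in the adult samples. In NP it held for 17.3% and 23.2% at P0 and for 100%, 100% and 98.1% in the adult samples, where only 50, 84 and 52 NP nuclei were scored. It was as frequent in NP_LOH, another cluster without a profile of its own (100% of its nuclei), and in the neighbouring segments CNT (90.0%) and DCT (87.3%), the connecting and distal convoluted tubules, so a high value is not particular to PT_out. The best pair for PT_out was LOH with PT in 270 nuclei (62.1%). That pair led in 69.2% and 73.3% of the nuclei of the P0 samples, 57.1% at P21, and 50.5% and 62.3% at P56. PT with PT2 followed with 41 nuclei, NP with PT with 33, NP with Podo with 20 and NP with stroma2 with 18. PT with PT2 held 14 and 13 nuclei of the P0 samples and 4, 5 and 5 of the adult samples, NP with Podo held nuclei of P56 sample 1 alone, and NP with stroma2 held 1, 7 and 10 nuclei of the adult samples. The best matches to Podo all came from P56 sample 1 and those to PC from P56 sample 2. No resemblance score carries a p, since the clusters were drawn on the same nuclei.

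Mixture weights, which split the open peaks of each nucleus over all 13 profiles at once, were also led by PT and then LOH. The mean PT weight of PT_out nuclei was 0.468 ± 0.0531 (SD, n = 5 samples), the mean LOH weight 0.180 ± 0.0225, the mean PT2 weight 0.0847 and the mean NP weight 0.0837. The PT2 weight was 0.175 and 0.141 at P0 and 0.0449, 0.0404 and 0.0216 in the adult samples. Over all 446 nuclei, those with a proximal weight (PT and PT2 together) of at least 0.3 had a mean NP weight of 0.0442 and a mean Podo weight of 0.0183, against 0.277 and 0.172 in the 84 nuclei below that limit. The LOH weight was 0.189 and 0.164 in the P0 samples, 0.157 at P21, and 0.178 and 0.214 at P56, so that the stages overlapped. In PT nuclei the mean LOH weight was 0.00679, and in LOH nuclei the mean PT weight was 0.0258. A proximal weight and a LOH weight of at least 0.2 were found together in 180 of 435 PT_out nuclei (41.4%). This share came to 41.0% and 26.7% in the libraries of P0, 26.5% in that of P21, and 45.6% and 52.3% in those of P56. In PT it was at most 0.929% in any sample. In PT2 it was 18.1% and 7.21% at P0 and 0.930% to 4.69% in the adult samples, and in LOH 9.34% and 10.5% at P0 and 0.802% to 6.42% in the adult samples. PT, PT2 and LOH nuclei had a profile of their own cluster among the 13. PT_out had none, so its weight had to fall on other profiles, and neither the weights nor these shares are compared on equal terms. In NP_LOH, also without a profile, the mean weight over nuclei was 0.505 for NP, 0.185 for PC and 0.135 for LOH. The Pearson correlation of the summed PT_out profile across peaks averaged 0.783 with PT, 0.693 with PT2 and 0.692 with LOH over the 5 samples. The sums differ in depth within a library, with 345082 open calls in PT_out, 9131677 in PT and 1563216 in LOH at P21. At P0 the PT sums held 4041065 and 3345160 open calls and the LOH sums 4237673 and 5038740. The part of depth in these correlations was not tested. PT came first in every sample, while the order behind it varied. In P56 sample 1 the correlation was 0.621 with DCT and 0.612 with LOH. In P56 sample 2 it was 0.757 with DCT, 0.741 with LOH, 0.726 with IC (intercalated cell) and 0.717 with PC, all above the 0.681 with PT2. In the deposited embedding, 85.0% of the 15 nearest neighbours of a PT_out nucleus were other PT_out nuclei, 7.71% were PT and 6.02% LOH.

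The nuclei with a marked LOH weight were not the deepest ones throughout. Among nuclei with a proximal weight of at least 0.3, those with a LOH weight of at least 0.2 (31, 20, 13, 47 and 68 nuclei in the order of the samples) had a median of 6270, 8502, 8867, 5778 and 9814 open peaks. Those under 0.2 (45, 55, 21, 21 and 32 nuclei) had 5970, 6231, 9188, 5572 and 11188.5. The former were deeper in 3 samples and shallower in 2. They were also deeper than the median PT nucleus and the median LOH nucleus in 4 of 5 samples, all but P0 sample 1, and the part of depth in the LOH weight was not tested.

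Peaks that set the proximal clusters and LOH apart placed PT_out between them. Among adult samples, 17932 peaks were at least 3-fold higher in the proximal clusters than in LOH, and they held 14.9% of the PT_out open calls at P21, and 15.3% and 16.4% at P56. PT had 25.3%, 28.2% and 27.3% in these samples and LOH 3.30%, 2.57% and 2.38%, so PT_out lay 52.7%, 49.5% and 56.4% of the way from LOH to PT. The 9751 peaks led by LOH held 5.23%, 6.45% and 6.53% of PT_out open calls, with 1.43%, 1.59% and 1.36% in PT and 13.9%, 17.0% and 15.0% in LOH. PT_out thus lay 30.4%, 31.5% and 37.8% of the way from PT to LOH.

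At P0 the same 2 sets, chosen again within the P0 samples, gave a similar placement. The 13211 proximal peaks held 10.5% and 11.3% of the PT_out open calls (17.9% and 18.4% in PT, 2.50% and 2.64% in LOH). The 8438 LOH peaks held 3.39% and 2.97% (1.41% and 1.28% in PT, 8.78% and 8.35% in LOH), which is 26.8% and 23.9% of the way from PT to LOH. In all 5 samples PT_out lay between PT and LOH in both sets of peaks. The sets were chosen on the difference between these clusters, so such a place is not particular to PT_out. PT2 also lay between them in both sets in all 5 samples, with 2.41% and 2.02% in the LOH peaks at P0 and 2.33%, 2.41% and 2.89% in the adult samples. In the adult samples NP and Podo lay between them in both sets as well. Peaks led by other clusters were raised as well. The peaks at least 3-fold higher in NP than in the proximal clusters held 5.18% and 4.68% of PT_out open calls at P0 and 6.25%, 7.35% and 5.57% in the adult samples, with 2.36%, 2.17%, 1.48%, 1.60% and 1.26% in PT. LOH was above PT_out in these peaks in every sample, with 8.25% and 7.45% at P0 and 8.29%, 9.96% and 8.49% in the adult samples. Those led by podocytes held 3.65%, 3.33%, 4.71%, 5.39% and 3.54% (1.28% to 1.89% in PT), above LOH at P21 and in P56 sample 1, and those led by stroma held 3.71%, 3.27%, 4.36%, 5.01% and 3.57% (1.31% to 2.38% in PT). NP nuclei in turn held more of the LOH peaks than PT_out did, with 7.12% and 6.95% at P0 and 7.80%, 8.96% and 7.66% in the adult samples.

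Gene activity was then compared, taken as the sum of open calls in peaks over a gene body and the 2 kb upstream of it, scaled to all open calls of that cluster and sample (CPM). These levels grow with gene length and peak number, so they are compared between clusters and samples and never between genes. Against PT, 2085 of 24228 genes were higher in PT_out and 2155 lower (8.61% and 8.89% of the genes tested, edgeR quasi-likelihood test with the sample as a block, Benjamini-Hochberg adjusted p under 0.05). Since the clusters were drawn on the openness of the same nuclei, calls between clusters rank genes and are no independent test. The marker and function lists of the healthy proximal tubule had more genes lower than higher in PT_out, and the loop of Henle list had more genes higher. The median log2 difference of all genes tested was 0.01.

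Of 15 genes used by all proximal segments, 13 were lower in PT_out than in PT and 0 higher (median -0.73), and so were 9 of 9 genes of the convoluted part (median -0.68). Slc34a1 (chr13:55398187-55415592 in mm10, plus strand) encodes the phosphate carrier of the proximal brush border. Its level in PT_out was 89.4 and 83.4 CPM at P0, 197 in the P21 library, and 179 and 207 at P56. In PT it was 197, 207, 366, 284 and 325 in the same order. PT_out was below PT in 5 of 5 samples (log2 difference -0.92 ± 0.10 SE, edgeR adjusted p = 1.1e-05), and the adult values of PT_out lay near the P0 values of PT.

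Lrp2, the endocytic receptor megalin, stood at 162, 181, 296, 194 and 286 CPM in PT_out and at 297, 308, 409, 283 and 438 in PT (-0.70 ± 0.08). Hnf4a, the nuclear receptor that maintains proximal identity, stood at 228, 201, 281, 170 and 277 against 307, 338, 453, 344 and 449 (-0.76 ± 0.08). Both genes were lower in each of the 5 pairs of samples and still far above their level in LOH, with log2 differences of 2.05 ± 0.20 and 2.29 ± 0.21. Miox, the renal oxygenase of inositol breakdown, was at -1.104 against PT on the log2 scale, and Slc13a3, a dicarboxylate carrier, at -0.91.

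The function lists of the proximal tubule followed the markers in direction. Of 14 apical sodium-coupled carriers, 11 were lower and 0 higher, among them Slc5a12, a lactate carrier (-0.96), Slc6a18, a glycine carrier (-0.85), and Slc3a1, the heavy chain of the cystine carrier (-0.67). Of 11 organic ion transporters tested, 9 were lower, with Slc22a12, the urate exchanger, at -0.93, Slc22a8, an organic anion transporter, at -0.60, and Slc47a1, which exports organic cations, at -0.51. Fatty acid oxidation had 9 of 15 genes lower (Ehhadh, a peroxisomal enzyme, -0.55). Gluconeogenesis and ammonia handling had 6 of 10 (Fbp1 -0.91, Pck1 -0.66 and Pcx -0.48, enzymes of glucose synthesis). Of 15 transcription factors of the proximal tubule, 8 were lower, including Ppara (-0.75), Nr1h4 (-0.70) and Esrrg (-0.35). The endocytosis list had 3 of 8 genes lower. None of the genes in these 6 function lists was called higher.

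**Figure D1:**
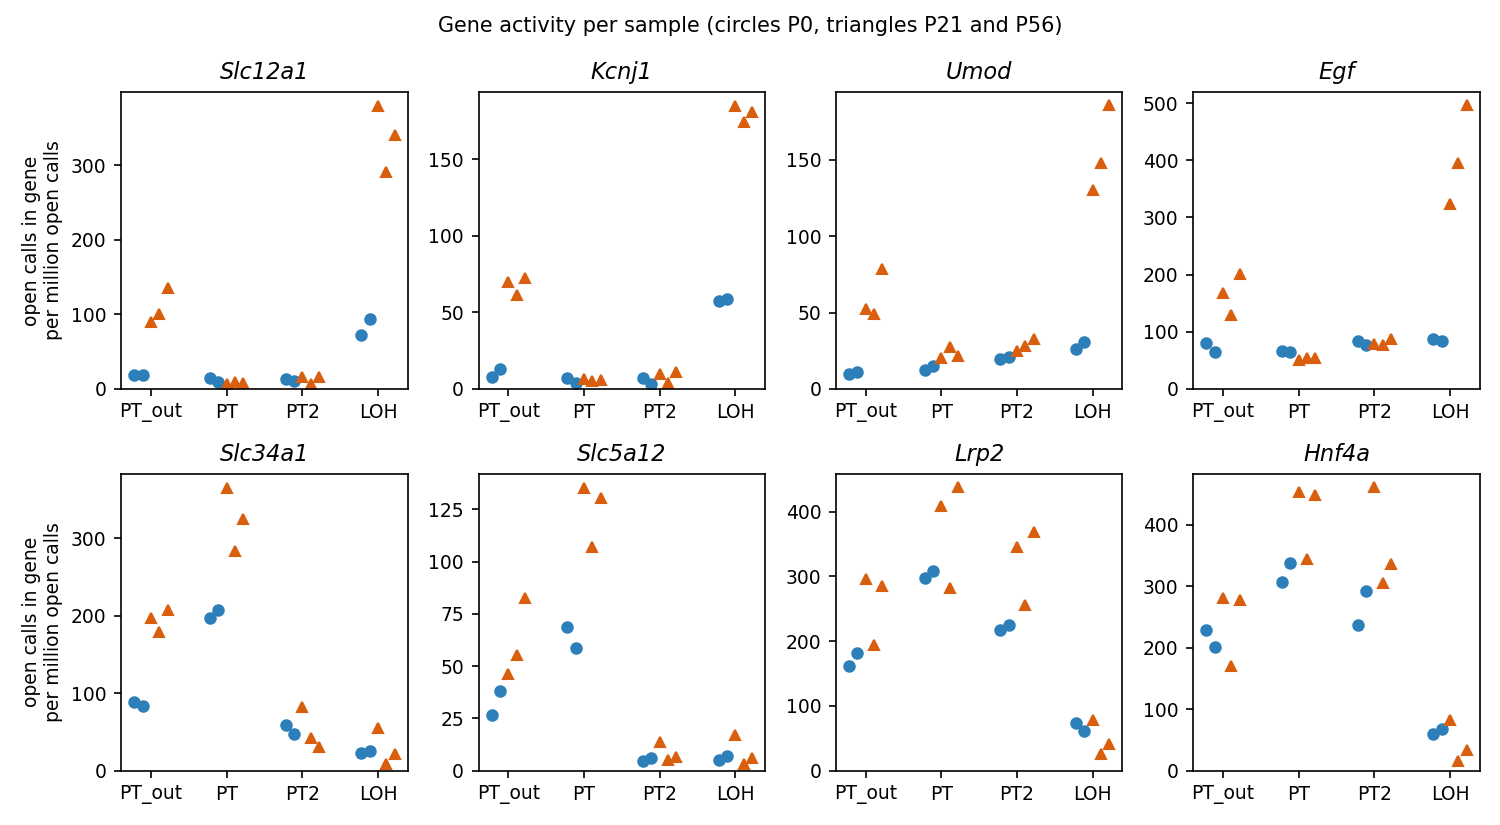
Gene activity of named genes in CPM (axes from 0) by cluster and sample, with blue circles for P0 samples and orange triangles for P21 and P56 samples. For Slc12a1 the adult PT_out samples (89.8 to 135) lie between PT (6.57 to 9.20) and LOH (292 to 380), and for Slc34a1 all 5 PT_out samples lie below the PT sample of the same library.

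Within the proximal clusters PT_out was nearer to the convoluted part. Against PT2, 1574 of 20951 genes were higher in PT_out and 2256 lower (7.51% and 10.8% of the genes tested, edgeR). Of 9 convoluted genes, 7 were higher in PT_out than in PT2 and 0 lower (median 0.89, beside 0.03 for all genes), and of 9 straight tubule genes 0 were higher and 7 lower (median -1.08). Slc5a12 was at 26.6, 38.1, 46.4, 55.3 and 82.7 CPM in PT_out and at 4.84, 6.04, 13.7, 5.23 and 6.53 in PT2, with no overlap (2.97 ± 0.26). Slc5a2, the glucose carrier of the convoluted part, was higher by 2.76 ± 0.35. Aadat, an aminotransferase, was lower than in PT2 by a log2 difference of -1.96 ± 0.20, Slc22a7, an organic anion transporter, by -2.61 ± 0.22, and Atp11a, a phospholipid flippase, by -1.50 ± 0.15. Kap, an androgen-responsive gene of the straight tubule, had 0 open calls in all 5 PT_out samples. It was at 13.3 and 15.1 CPM in PT2 at P0 and at 113, 68.3 and 96.8 CPM in the adult samples, and at 2.85 to 9.95 CPM in PT. In PT_out 3 counts over the cluster come to 0.986 CPM.

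The loop of Henle list was the reverse of the proximal lists. Of 8 genes, 6 were higher in PT_out than in PT and 0 lower (median 1.14). Slc12a1 (chr2:125152505-125230002 in mm10, plus strand) was at 19.0 and 18.1 CPM in PT_out at P0, 89.8 in the P21 library, and 99.9 and 135 at P56. In PT it was at 14.1, 9.87, 6.57, 9.20 and 8.16, and in LOH at 72.9, 94.1, 380, 292 and 341. PT_out was above PT and below LOH in each of the 5 samples (2.96 ± 0.35 against PT, edgeR adjusted p = 1.8e-05, and -1.72 ± 0.15 against LOH), and the excess over PT was small at P0 and large in the adult samples.

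Kcnj1, the renal outer medullary potassium channel, behaved alike, at 7.61, 12.7, 69.5, 61.7 and 72.3 in PT_out and at 6.93, 4.19, 6.46, 5.39 and 5.96 in PT (2.89 ± 0.34). Egf, the growth factor precursor made by the distal nephron, was at 79.9, 65.3, 168, 130 and 200 against 65.8, 65.5, 50.6, 54.5 and 54.3 (1.19 ± 0.18). The P0 values of Egf overlapped with PT, and the adult values did not. Umod was at 9.51, 10.9, 52.2, 48.9 and 78.3 against 12.1, 15.2, 20.5, 27.1 and 21.6, below PT in both P0 samples and above it in the 3 adult samples (1.08 ± 0.23). Cldn16, a tight junction claudin of the thick ascending limb, was higher by 3.14 ± 0.60 and Ptger3, a prostaglandin receptor, by 0.80 ± 0.19. Cldn10 (-0.24, adjusted p = 0.15) and Cldn19 (0.73, adjusted p = 0.27), 2 further claudins, did not pass.

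Against LOH, 2801 of 23295 genes were higher in PT_out and 2282 lower (12% and 9.8% of the genes tested, edgeR). Of the loop of Henle list 7 of 8 were lower than in LOH (median -1.40), and of 14 proximal genes 13 were higher (median 2.13, beside -0.10 for all genes).

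**Figure D2:**
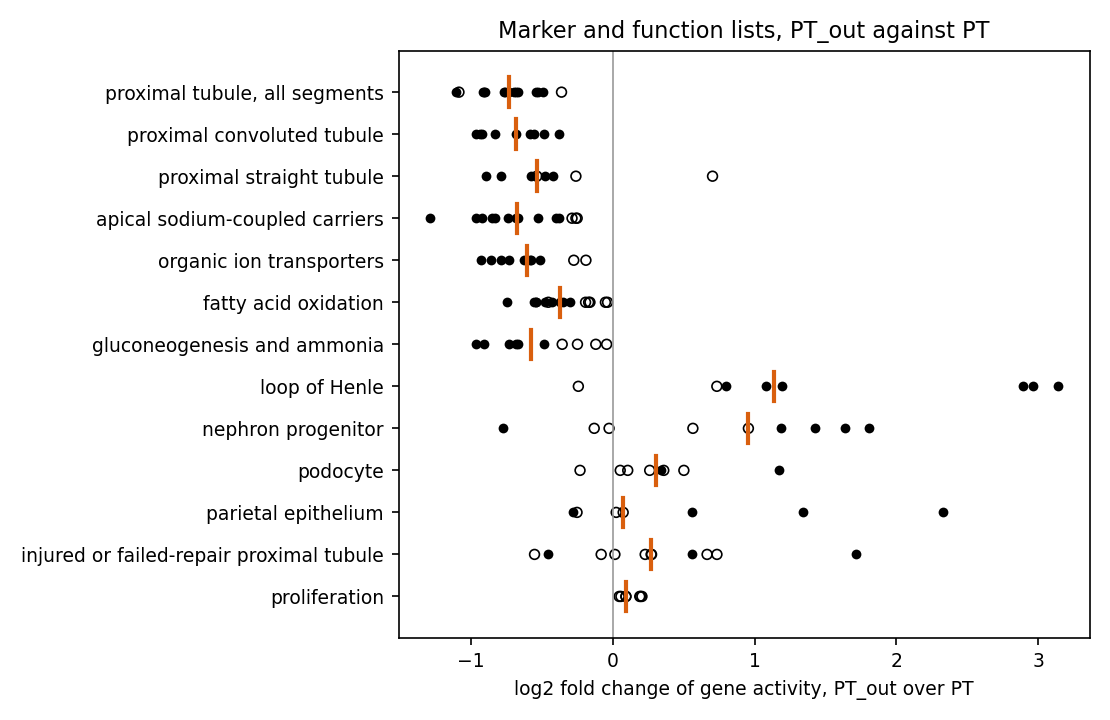
Log2 difference in gene activity of PT_out against PT for each gene of the marker and function lists, with filled points for an edgeR adjusted p under 0.05, open points for the other genes and an orange bar at the median of a list. The medians of the proximal lists lie below 0 and that of the loop of Henle list above it, and Kap (fitted at -7.42) is off the scale. The fit for Kap rests on 0 open calls in PT_out and is no measured size. At 3 counts it would be at least 5.03-fold lower than PT.

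A sum over nuclei cannot tell nuclei open at both genes from a mixture of nuclei open at either, so Slc12a1 and Slc34a1 were counted within nuclei. Each nucleus is a barcode here, and a barcode that held more than 1 nucleus could also count as open at both. Doublets were not called, so this was not tested. In the adult samples an open Slc12a1 peak was found in 34.6% (P21), 31.1% and 58.0% (P56) of PT_out nuclei, against 3.61%, 3.86% and 5.31% of PT nuclei, the cluster that should lack this carrier. Both genes were open in 32.7%, 20.8% and 51.1% of the adult PT_out nuclei. In PT the share with both ran from 3.21% to 8.04% over the 5 samples, and in LOH from 1.44% to 8.63%, at the median depths given above.

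Of the adult PT_out nuclei with Slc12a1 open, 17 of 18 at P21, 22 of 33 in P56 sample 1 and 67 of 76 in P56 sample 2 also had Slc34a1 open (94.4%, 66.7% and 88.2%). In LOH this was 12.8%, 2.72% and 6.05% of the nuclei with Slc12a1 open. A comparison with PT_out nuclei in which Slc12a1 was closed was not made, so these shares do not show that the openings go together. At P0 both genes were open in 5 of 79 and 2 of 78 PT_out nuclei (6.33% and 2.56%), not above the highest sample of PT. After thinning each nucleus to 1000 open peaks, Slc12a1 was open in 4.08%, 9.71% and 14.6% of the adult PT_out nuclei, against 0.529%, 1.16% and 1.05% in PT. At that depth both genes were open together in only 4 PT_out nuclei of all samples, 1 and 3 in the P56 samples, too few to compare.

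**Figure D3:**
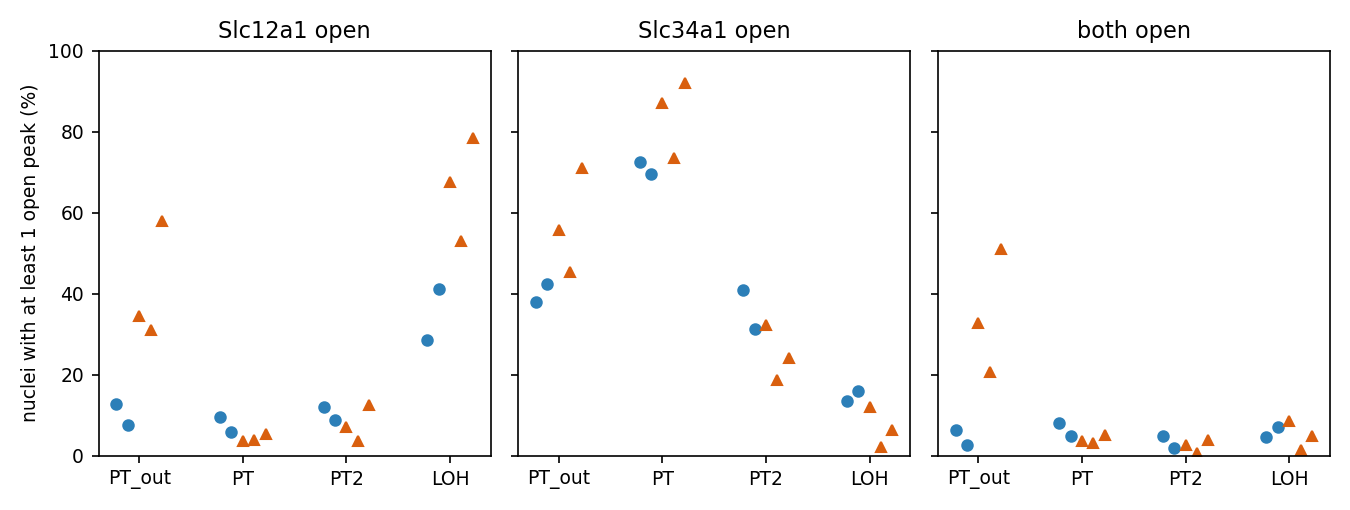
Share of nuclei (percent) with at least 1 open peak in Slc12a1, in Slc34a1 and in both genes, by cluster and sample, with blue circles for P0 samples and orange triangles for P21 and P56 samples. For both genes the 3 adult PT_out samples (20.8% to 51.1%) lie above every sample of PT, PT2 and LOH, and the P0 samples (2.56% and 6.33%) lie among them.

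Markers of other cell types were called in part. The nephron progenitor list had 4 of 9 genes higher than PT and 1 lower (median 0.96). The higher genes were Eya1 (1.19), Uncx (1.64), Meox1 (1.81) and Spock2 (1.42), with Crym lower (-0.77), and Six2, the defining factor of the progenitor, did not pass (0.96). The summed level of the list was above PT at P0 and below it in each adult sample. It was 274, 267, 229, 240 and 280 CPM in PT_out, and 236, 220, 307, 248 and 306 in PT. In LOH it was 342, 307, 242, 193 and 195, above PT_out at P0. Of 8 podocyte genes tested 2 were higher (median 0.30). Wt1, a factor of progenitors and podocytes, was at 55.1, 68.9, 46.4, 19.1 and 19.2 CPM in PT_out and at 35.9, 23.0, 12.05, 12.7 and 7.23 in PT (1.17 ± 0.20), above PT in each sample, while Nphs1, which encodes nephrin of the slit diaphragm, did not pass (0.26, adjusted p = 0.42).

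The parietal epithelium list had 3 of 7 genes higher and 1 lower, with Cldn3, a claudin also of the distal nephron, at 2.33 ± 0.38, and Scin, an actin-severing protein, at 1.34 ± 0.20. The thin limb list had 2 higher (among them Cryab, a small heat shock protein, 1.43) and 1 lower (Aqp1, a water channel, -0.78) of 10. In the P0 samples alone Sptssb (1.21), Epha7 (0.65) and Fst (0.88) of this list were called higher and Aqp1 (-0.88) lower. Of 11 genes of injured or failed-repair proximal tubule 2 were higher, Sox9 (1.71) and Akap12 (0.56), and 1 was lower, Spp1 (-0.46). Havcr1, the injury molecule KIM-1, stood at -0.08 and Vcam1 at 0.67, and neither passed over the 5 samples. In the P0 samples alone Vcam1 was higher than PT (1.33 ± 0.45, edgeR adjusted p = 0.033) and Spp1 lower (-1.20 ± 0.30, adjusted p = 0.0036). Havcr1 (0.53, adjusted p = 0.52) and Sox9 (1.61, adjusted p = 0.058) did not pass there. The proliferation list had 0 of 7 genes called in either direction by edgeR, with 0 at an unadjusted p under 0.05 and 0 by DESeq2. Endothelial and stromal lists had 1 of 8 and 1 of 9 genes higher. The immune list had 1 of 4 genes lower and none higher. Further along the nephron, the distal convoluted tubule had 1 of 5 genes higher and 1 lower, the principal cell 1 of 8 higher and 1 lower, the connecting tubule 1 of 5 higher and the urothelium 1 of 5 higher. The intercalated cell list had 0 of 4 genes called by edgeR, with 1 at an unadjusted p under 0.05 and 0 called by DESeq2. Of all genes tested 8.61% were higher than PT and 8.89% lower.

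The gene activity of PT_out was next compared between stages, a comparison across samples that the choice of the cluster did not use. Of 16981 genes, 1130 were higher in the adult samples and 1282 lower (6.65% and 7.55% of the genes tested, edgeR), a balance that turned by DESeq2 (285 higher and 201 lower) and without P0 sample 1 (351 and 255), P0 sample 2 (367 and 329) or P56 sample 2 (702 and 594). The libraries also differed in Y-linked signal and in make-up. Open calls in 4 Y-linked genes numbered 1856 and 2035 in the P0 libraries and 1108 in P56 sample 1, against 1 at P21 and 0 in P56 sample 2, and the labels give no sex. Stage and sex can therefore be told apart only in part. The P0 libraries and P56 sample 1 alone leave a single adult library, which is assumed to vary like the others. Of the PT_out nuclei with a proximal weight under 0.3, 1 came from P0 and the rest from the adult samples, and without them 1572 of 17080 genes were higher in the adult samples and 1749 lower. The loop of Henle list rose, with 6 of 7 genes higher in the adult samples and 0 lower (median 1.23, beside 0.01 for all genes). Slc12a1 rose by 2.62 ± 0.27 (adjusted p = 2.7e-05), Kcnj1 by 2.71 ± 0.33, Umod by 2.60 ± 0.37 and Egf by 1.23 ± 0.21 on the log2 scale. For each of these genes the lowest adult sample was above the higher P0 sample. Of all 16981 genes tested 3411 were separated in this way, and 3499 in the other direction. The summed level of the list was also higher in adult LOH nuclei, with 511 and 529 CPM at P0 and 1524, 1494 and 1631 CPM in the adult samples, beside 312, 257, 701, 585 and 783 in PT_out and 354, 369, 305, 299.9 and 309 in PT. A difference between the stage effects of PT_out and LOH was not tested.

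Proximal genes rose too, in 8 of 14 markers of all segments (median 0.61) and 6 of 9 of the convoluted part, with Slc34a1 up by 1.17 ± 0.17, Slc5a12 by 1.05 ± 0.28 and Miox by 2.47 ± 0.43. Lrp2 rose by 0.58 ± 0.17. With the P0 libraries and P56 sample 1 alone, Slc34a1 stood at 1.11 and still passed, while Slc5a12 at 0.82 (edgeR adjusted p = 0.21), Miox at 2.03 (adjusted p = 0.15) and Lrp2 at 0.23 (adjusted p = 0.56) did not. Over all 5 libraries Hnf4a was at 0.18 ± 0.18 (adjusted p = 0.58). Wt1 fell by 1.33 on the log2 scale. Klk1, a kallikrein of the connecting tubule, had 0 open calls at P0 and 43 in the adult samples, where it was at 11.6, 19.1 and 26.1 CPM.

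Whether PT_out and PT changed unequally with stage was tested as an interaction, with the sample as a block. The stage effect of PT_out was above that of PT for 946 of 24228 genes and below it for 251 (3.9% and 1.04% of the genes tested, edgeR). The loop of Henle list had 7 of 8 genes above and 0 below, with a median of 2.33 beside 0.06 for all genes. DESeq2 called 4 of 8. With each nucleus thinned to 1000 open peaks 7 genes passed in all, of 14950 tested by edgeR, and 0 of 7 of the list (median 1.51). Slc12a1 differed by 3.21 ± 0.35 (adjusted p = 5.3e-15), Kcnj1 by 2.68 ± 0.51 (adjusted p = 4.3e-05), Umod by 1.98 ± 0.40 (adjusted p = 0.0002) and Egf by 1.59 ± 0.17 (adjusted p = 3e-15). The libraries with Y-linked open calls, the P0 libraries and P56 sample 1, leave a single adult library. With these alone Slc12a1 differed by 2.79, Kcnj1 by 2.63, Egf by 1.09, Umod by 1.26 and Slc34a1 by 0.55. Over all libraries Cldn19 differed by 3.60 ± 0.33. It was at 20.9, 18.1, 49.3, 29.8 and 43.5 CPM in PT_out and at 45.3, 54.4, 7.78, 6.97 and 9.89 in PT, so it was lower than PT at P0 and higher in the adult samples.

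For most proximal genes the stage effects were not shown to differ. Of 15 markers of all segments 4 had a higher stage effect in PT_out and 1 a lower one (median 0.11), with Miox at 1.55 ± 0.43 and Slc13a3 at 0.62 ± 0.18. Of the convoluted genes 1 of 9 passed, Slc34a1 (0.54 ± 0.17, adjusted p = 0.046). Lrp2 (0.26 ± 0.14, adjusted p = 0.36) and Hnf4a (-0.16 ± 0.14, adjusted p = 0.65) did not pass.

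**Figure D4:**
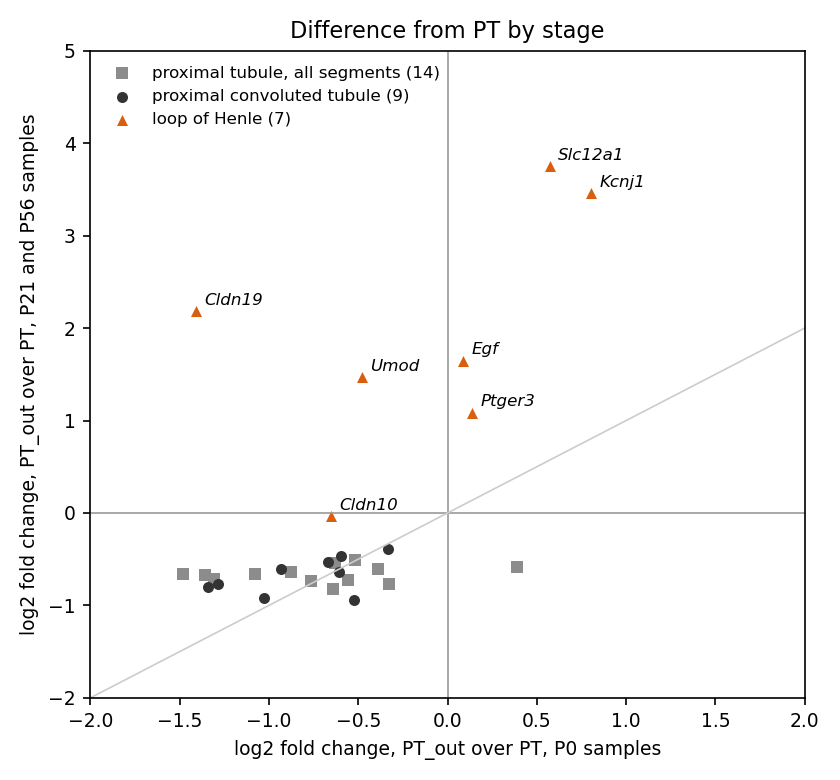
Log2 difference of PT_out against PT at P0 (one axis) and in the adult samples (the other axis) for markers of all proximal segments, the convoluted part and the loop of Henle, with a grey diagonal where both are equal. Most proximal genes lie below 0 at both stages, and the loop of Henle genes called in the interaction lie off the diagonal towards the adult samples, with Cldn19 at -1.41 at P0 (Cldn16 was not tested at P0 and is not drawn).

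The departure of PT_out from PT was also fitted within each stage. In the P0 samples alone the loop of Henle list had 0 of 7 genes higher than PT and 2 lower (median 0.09), beside 4.88% of all 22780 genes tested higher and 6.53% lower. In the adult samples alone 7 of 8 were higher (median 1.91), beside 10.2% of all 25273 genes higher and 10.6% lower. The proximal list was lower at both stages, with 11 of 14 genes at P0 (median -0.70) and 14 of 15 in the adult samples (median -0.67). Slc12a1 was not called at P0 (0.57 ± 0.37, adjusted p = 0.36), and Cldn19 was lower there (-1.41 ± 0.25).

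Of the 1112 genes higher than PT at P0 alone, 21.4% had their highest level in NP among the named clusters (5.75% of all genes tested) and 5.40% in LOH (2.15% of all). Above LOH were also the immune (12.1%, 26.6% of all) and endothelial clusters (11.7%, 7.22% of all) and Podo (11.3%, 9.94% of all). So were stroma2 (7.82%, 4.31% of all), stroma1 (7.73%, 3.91% of all) and PC (7.55%, 4.04% of all). Of the 2578 genes higher in the adult samples alone, 19.0% had their highest level in LOH (5.73% of all genes tested) and 11.4% in NP (6.90% of all). The endothelial cluster followed with 10.98% (9.83% of all), CNT with 9.50% (5.88% of all), stroma2 with 9.31% (6.72% of all) and DCT with 8.999% (7.53% of all). These shares are descriptions, since the calls and the highest level both use the PT sums. Among protein-coding genes with the largest differences at P0 alone, chosen after their values were seen, were Lfng, a modifier of Notch signalling (1.74 ± 0.23), and L1cam, a cell adhesion molecule (1.79 ± 0.37). In the adult samples they included Cldn8, a claudin of the collecting system (4.95 ± 0.49), and Klk1 (5.00 ± 0.48). Both are outside the loop of Henle list, and both were lower in PT_out than in LOH (-1.82 ± 0.25 and -1.71 ± 0.25, over all 5 samples).

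Single peaks were compared in the same way. Against PT, 5059 of 72448 peaks were more open in PT_out and 6845 less open (6.98% and 9.45% of the peaks tested, edgeR). DESeq2 turned this balance, with 4483 more open and 1317 less open. An annotated start site was covered by 19.3% of the more open peaks, 11.8% of the less open peaks and 22.9% of all peaks tested. Against PT2, 4334 of 37748 peaks were more open and 6674 less open (11.5% and 17.7%).

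At P0 alone 1302 of 50732 peaks were more open than in PT (2.57%) and 1874 less open (3.69%). Of the more open peaks 25.2% had their highest level in NP (5.09% of all peaks tested), 11.0% in Podo (7.82% of all) and 10.5% in LOH (2.78% of all). In the adult samples alone 8277 of 95597 peaks were more open (8.66%) and 6400 less open (6.69%), and the more open peaks had their highest level in LOH in 24.3% (5.39% of all), in NP in 15.2% (8.33% of all), in DCT in 11.2% (5.83% of all) and in CNT in 10.98% (5.26% of all). The less open peaks had their highest level in PT in 75.1% at P0 (23.4% of all) and 67.5% in the adult samples (20.2% of all). These shares are descriptions, since the calls and the highest level both use the PT sums.

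Between stages, 1682 of 16942 PT_out peaks were more open in the adult samples and 1193 less open (9.93% and 7.04%). The stage effect of PT_out was above that of PT at 1355 of 72448 peaks and below it at 155 (1.87% and 0.214%, edgeR). This count rested on single libraries and on the tool, with 42 above and 27 below without P0 sample 2, 182 and 7 without P0 sample 1, 480 and 44 without P56 sample 2, and 53 and 1 by DESeq2. With each nucleus thinned to 1000 open peaks edgeR called 0 of 12886 peaks, with 727 at an unadjusted p under 0.05. By the fixed rule of size, the most raised peak against PT was a distal element at chr1:117490140-117490795. It was open in 1.27% and 2.56% of PT_out nuclei at P0, 7.69% in the P21 library, and 8.49% and 7.63% at P56. In PT it was open in at most 0.174% of nuclei in any sample, and in LOH in 7.09% to 11.3%. The 6 most lowered peaks were open in 0 of 446 PT_out nuclei, which allows a share of up to 0.673%. A ranking by size favours such zeros. Among them, chr2:128794078-128794563 was open in 9.14% and 4.49% of PT nuclei at P0. In the adult PT samples it was open in 0.387%, 0.0813% and 0.392%, below that limit. The peak chr2:135854322-135855110 was open in 4.02% and 1.97% of PT nuclei at P0 and in 3.09%, 2.07% and 1.26% in the adult samples.

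The central 300 bp of the peaks that differed from PT were searched on both strands for short motifs. The letters CAAAGTCCA, a core of the site of HNF4, were found in 3.86% of the less open peaks, 0.237% of the more open peaks and 1.58% of all peaks tested. TCAAGGTCA, the site of the ESRR receptors, was found in 1.58% of the more open peaks, 0.818% of the less open peaks and 0.801% of all. ACATTCCA (TEAD) was found in 3.72%, 2.19% and 2.06% and AACCNGTT (GRHL) in 3.48%, 2.50% and 2.40%, in the order more open, less open and all. TGANTCA (AP-1) was found in 10.8%, 11.0% and 9.22%, TGTTTAC (FOX) in 5.38%, 5.10% and 4.21%, GCCNNNGGC (TFAP2) in 14.8%, 11.5% and 14.2%, GGGGCGGGG (the GC box) in 3.85%, 1.65% and 4.67%, and AACAATGG (SOX) in 0.830%, 0.731% and 0.837%. Median GC content was 51.7% in the more open, 48.7% in the less open and 50.7% in all tested peaks, and their median widths were 788, 672 and 685 bp. The part of GC content and width in these shares was not tested, and a match is a description of letters, not of a bound factor.

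The windows below show what these elements look like, with 40 bases on either side of the motif, in mm10 and read on the forward strand. Capitals mark the motif, or its reverse complement where the site is on the reverse strand. The HNF4 windows are from 2 of the 3 less open peaks with the motif and the lowest adjusted p, and the ESRR windows from the more open peaks with the lowest adjusted p and from an intron of Slc12a1. All are intron or distal peaks away from start sites. Except for that in Slc12a1, only peaks open in most PT_out samples were considered, so peaks closed in both P0 samples were left out.
HNF4, chr3:108920938-108921026, distal, nearest gene Prpf38b, site on the forward strand: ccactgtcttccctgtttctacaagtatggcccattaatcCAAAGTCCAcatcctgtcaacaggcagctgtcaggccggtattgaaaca
HNF4, chr13:3664377-3664465, distal, nearest gene Asb13, site on the reverse strand: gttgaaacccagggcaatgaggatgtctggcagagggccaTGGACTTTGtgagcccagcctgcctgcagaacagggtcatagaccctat
ESRR, chr4:136743058-136743146, intron of Ephb2, site on the reverse strand: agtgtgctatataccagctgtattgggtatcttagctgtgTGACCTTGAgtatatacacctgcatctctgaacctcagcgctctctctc
ESRR, chr19:46646328-46646416, intron of Wbp1l, site on the reverse strand: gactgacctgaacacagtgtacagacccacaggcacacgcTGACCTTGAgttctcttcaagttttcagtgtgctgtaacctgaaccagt
ESRR, chr5:37472283-37472371, intron of Stk32b, site on the forward strand: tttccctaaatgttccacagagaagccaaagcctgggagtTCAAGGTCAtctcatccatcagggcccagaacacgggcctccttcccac
ESRR, chr2:125158908-125158996, intron of Slc12a1, site on the reverse strand: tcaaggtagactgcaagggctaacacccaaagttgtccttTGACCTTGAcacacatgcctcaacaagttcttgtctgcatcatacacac

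The 2 peaks with HNF4 windows were less open in PT_out than in PT. The distal peak of chr3 was open in 5.06%, 7.69%, 17.3%, 6.60% and 28.2% of PT_out nuclei and in 21.6%, 15.8%, 21.7%, 17.0% and 40.3% of PT nuclei (-0.995 ± 0.16). The distal peak of chr13 was open in 1.27% to 8.40% of PT_out nuclei against 9.69% to 17.9% of PT (-1.61 ± 0.28), with no overlap. Each was lower than PT in 5 of 5 samples.

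The peaks with ESRR windows in Ephb2, Wbp1l and Stk32b were open in more PT_out nuclei in each adult sample than in either P0 sample, and that in Slc12a1 was not. The intronic peak of Ephb2, an ephrin receptor, was open in 0 of 79 nuclei of P0 sample 1, which allows a share of up to 3.80%, and in 2.56%, 25%, 17.0% and 39.7% of the nuclei of the other samples. In PT it was open in 0.783% to 2.33% and in LOH in 20.5% to 56.7% of nuclei (PT_out against PT 3.44 ± 0.36). In PT2 it was open in 18.1% and 15.2% of nuclei at P0, more than in PT_out, and in 7.52%, 9.74% and 14.4% in the adult samples. The intronic peak of Wbp1l was open in 2.53%, 0%, 19.2%, 15.1% and 34.4% of PT_out nuclei (4.33 ± 0.49), and that of Stk32b in 1.27%, 0%, 13.5%, 9.43% and 22.1% (4.99 ± 0.71). For P0 sample 2 a count of 0 allows a share of up to 3.85%. The intronic peak of Slc12a1 was open in 1.27%, 0%, 5.77%, 0.943% and 12.98% of PT_out nuclei and in at most 0.359% of PT nuclei (4.37 ± 1.02, adjusted p = 0.00062). In the adult samples all 4 peaks were more open in PT_out than in any PT sample.

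PT_out was not uniform. A group of 84 of its 446 nuclei had a proximal weight under 0.3, a limit set after the weights were seen, and they were unevenly spread over the samples, with 1 nucleus in P0 sample 1, none in P0 sample 2, 18 nuclei at P21, and 37 and 28 in the P56 libraries. Their median depth was 2391 open peaks, against 7225 for the rest, and 80 of them lay in an island of the deposited embedding that held 15 of the rest. Their mean weights were 0.277 for NP, 0.172 for Podo, 0.117 for stroma2, 0.0882 for LOH and 0.0439 for PT, with NP the highest. The NP profiles of the adult samples came from few nuclei, nearly all of which a pair of profiles described better than any profile alone. Whether adult NP nuclei are progenitors was not tested. Of the 84 nuclei 60 had a proximal weight of at most 0.1 and 9 had 0.2 to 0.3, beside 18 nuclei of PT_out just above the limit at 0.3 to 0.4.

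Among the genes that set these 84 nuclei apart in all 3 adult samples, chosen after their values were seen, were Heyl, a Notch target, with a mean of 158 CPM against 10.4 in the rest of PT_out, Tgfa, a ligand of the EGF receptor, with 222 against 20.5, and Nrp2, a semaphorin co-receptor, with 309 against 50.1. Their defining genes are a description, since the same openness gave the weights. Without these nuclei the loop of Henle list still had 6 of 8 genes higher than PT (median 1.23) and the proximal list 13 of 15 lower (median -0.64). Of all 24189 genes then tested 1399 were higher than PT and 1363 lower, 2762 calls in place of 4240.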

How the data were processed

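Nuclei of mouse kidney were profiled by snATAC-seq in 5 libraries. Per the methods and the submitters' processing notes, the authors aligned reads to mm10 with Cell Ranger ATAC 1.1.0, filtered barcodes on fragment number, mitochondrial reads and signal at promoters, corrected batches with Harmony, clustered nuclei and called peaks by cell type with MACS2. They deposited a matrix of counts of 28316 nuclei by 300755 peaks, in which every stored entry was 0 or 1, so a peak cut many times counts once and the level of a deep nucleus is compressed. Embedding coordinates are deposited as a score without unit. The cluster labels are those of the deposited annotation. The other data types of the series were not used here.

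Open calls were summed per cluster and sample and compared where a sum held at least 20 nuclei. Gene activity summed the peaks over a gene body and 2 kb upstream (GENCODE annotation of mm10). Sums were tested with edgeR 4.0.16 (TMM scaling, quasi-likelihood test, minimum count 10 and total 15, Benjamini-Hochberg threshold 0.05) with the sample as a block between clusters, and DESeq2 1.42.0 served as an alternative. Single values were compared with exact permutation tests, whose smallest p is 0.2 for 2 against 3 samples and 0.062 for 5 pairs. Profiles were smoothed with 10 percent of the pooled profile of the named clusters, and mixture weights took 60 iterations. The scripts were tested on simulated data. Alternatives were other scalings, filters and tools, thinning to 1000 open peaks, either stage alone and leaving out each library.

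Named genes were taken from the marker and function lists, at most 6 per list by level and then by fold change, and beyond them by the largest changes shared by every sample, except where the text says that they were chosen after their values were seen. Motif searches and printed sequences used the GRCm38.p6 RefSeq assembly. The members and lists were chosen with earlier results of these data known. The interaction test of gene activity, the comparison with LOH, the mixture weights, the peaks led by a cluster, the counts of Slc12a1 with proximal genes within nuclei, the clusters of highest level and the fits without nuclei of low proximal weight were chosen after seeing the data. Results that need items withheld for evaluation are not reported here.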

Additional observations from a re-analysis of the deposited data

Results flagged for a closer look

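The stage effect of PT_out differed from that of PT, by the interaction test of edgeR with the sample as a block, at 1510 peaks and in 1197 genes. Among the named genes the adult minus P0 difference of PT_out exceeded that of PT, on the log2 scale, by 3.21 in Slc12a1, 2.68 in Kcnj1, 1.98 in Umod, 1.59 in Egf, 3.60 in Cldn19 and 0.65 in Cldn10 of the loop of Henle list. It exceeded that of PT by 1.87 in Cldn3, 1.55 in Miox, 1.38 in Slc6a18, 0.71 in Fbp1, 0.62 in Slc13a3 and 0.54 in Slc34a1. With the libraries that held Y-linked open calls alone, 306 genes and 63 peaks passed. Without the nuclei of PT_out with a proximal weight under 0.3, which were nearly all adult, 1204 of 24189 genes passed the interaction test. The stage effect was above that of PT in 938 of them and below it in 266. Of the loop of Henle list 8 of 8 genes were above PT (median 2.47). Shares, depths and start-site shares of the samples could not be searched for single outlying samples, because no stage held 4 or more.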

How the results depend on the processing

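With the sample as a block left out, the calls against PT fell to 285 genes and 69 peaks, and those against PT2 to 1025 genes and 1981 peaks. The loop of Henle list then had 3 genes higher than PT and the proximal list 0 lower, beside 191 of 21800 genes higher and 94 lower. Under DESeq2 there were 2615 genes against PT, 1638 against PT2, 486 between stages and 134 in the interaction with PT. At peaks DESeq2 gave 5800 against PT, 493 between stages and 54 in the interaction. Of its calls against PT 77.3% were more open in PT_out, beside 42.5% by edgeR, so the balance of gained and lost peaks depends on the tool. DESeq2 called 5 of 8 genes of the loop of Henle list higher than PT and 4 of 8 in the interaction. With no filter on low counts there were 6413 genes and 32025 peaks against PT, of which 15.1% of the peaks were more open, 20864 peaks against PT2 and 417 peaks in the interaction.

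Thinning each nucleus to 1000 open peaks, which removes most calls and tests fewer peaks, gave 585 genes against PT, 368 against PT2, 15 between stages and 7 in the interaction, and 110 peaks against PT. No peak was called by edgeR against PT2 (0 of 652, 39 at an unadjusted p under 0.05), between stages (0 of 52, 4 unadjusted) or in the interaction (0 of 12886, 727 unadjusted), and DESeq2 was not run on the thinned data. At that depth 3 of 7 genes of the loop of Henle list were higher than PT (median 0.82), and 0 of 7 passed in the interaction (median 1.51). The P0 samples alone gave 2600 genes and 3176 peaks against PT and 918 genes and 1089 peaks against PT2. Without the nuclei of low proximal weight 2762 genes differed from PT.

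Leaving out each library in turn, the genes called ran from 2703 to 3943 against PT, from 1862 to 3963 against PT2, from 606 to 3783 between stages and from 396 to 1200 in the interaction. The peaks ran from 5363 to 10695 against PT, from 4068 to 12229 against PT2, from 1099 to 3058 between stages and from 69 to 1270 in the interaction. Against PT and PT2 the lowest counts came without P56 sample 2. Between stages 606 genes and 1099 peaks were called without P0 sample 1, 696 and 1107 without P0 sample 2, and 1296 and 1312 without P56 sample 2, while 3783 genes were called without P56 sample 1. The balance of genes between stages turned as well, with 46.8% of the calls higher in the adult samples by edgeR, 58.6% by DESeq2, 57.9% without P0 sample 1, 52.7% without P0 sample 2, 54.2% without P56 sample 2 and 64.6% with the libraries that held Y-linked open calls. In the interaction it was 396 genes and 189 peaks without P0 sample 1, 499 and 69 without P0 sample 2, and 493 and 524 without P56 sample 2. Without P56 sample 1 there were 2244 genes against PT2 and 5555 peaks against PT, with 6848 peaks against PT2, and without the P21 sample 2480 genes against PT2. With the libraries that held Y-linked open calls alone, an alternative chosen after seeing the data, 1068 genes and 372 peaks differed between stages and 306 genes and 63 peaks passed in the interaction, and Hnf4a turned between stages (-0.27). Of the named genes Lrp2, Miox and Slc5a12 then lost the call between stages, and Umod, Cldn10, Cldn16, Cldn3, Fbp1, Miox, Slc13a3, Slc34a1 and Slc6a18 lost it in the interaction.

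The P0 and P56 libraries share the replicate numbers 1 and 2. Same-numbered libraries did not deviate together (r = 0.0513 over 7755 peaks, a description), so the numbers give no pairing. With the replicate number as a block, 2159 peaks and 2558 genes differed between P0 and P56, against 2185 and 1799 without the block.

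Directions that turned were the share of PT_out among PT, PT2 and PT_out nuclei (7.43 percentage points, P0 minus adult), Cldn19 (-1.41) and Umod (-0.48) against PT in the P0 samples alone, Slc34a1 in the interaction after thinning (-0.064), and Hnf4a in the interaction after thinning (0.066) and without the nuclei of low proximal weight (0.020). Leaving out each library, Hnf4a in the interaction ran from -0.32 to 0.0030. The correlation with PT was 0.667 at peaks away from start sites, the mean LOH weight over nuclei 0.127 with profiles pooled over the samples in place of 0.186, and the HNF4 difference 5.86 percentage points over whole peaks in place of 3.62. Except where fewer nuclei, samples or peaks were used, the cause was not tested. Among single genes against PT, 675 values kept their direction and call under an alternative, 96 lost the call, 6 gained it and 2 turned. The counts rest on 2 and 3 libraries a stage and on sums of 52 to 131 nuclei.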
